A study of Sus scrofa with 3 samples.

Results

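The small RNAs described here carry 7 microRNA names that the deposited tables place, in whole or in part, on a single stretch of pig chromosome 6: miR-2887, miR-2904, miR-4332, miR-5105, miR-6087, miR-716a and miR-6243. Members were the table lines with 1 of these names, 28 lines of the E90 table, 37 of P30d and 28 of P7y, plus the hairpins the authors predicted without a known name between 860000 and 880000 on chromosome 6 of the Sscrofa10.2 build. They are 7 of 677 names of known microRNAs, and 14 of the 1007 entries that a name and its 5p or 3p arm make. They were chosen by their place in the region and by their read counts in these 3 libraries, so the levels below are a description and carry no test. The working label calls them possible fragments of ribosomal RNA (rRNA), which was not tested, since no rRNA sequence was among the sources used here.

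MicroRNAs are cut from a folded precursor, first in the nucleus by Drosha and then in the cytoplasm by Dicer, so that reads of a true hairpin usually pile up on 2 arms that face each other across a loop and share a constant 5′ end. rRNA is made from tandem repeats of a long precursor whose spacers are rich in G and C, and pieces of it are regular by-products in small RNA libraries. Several names once entered as microRNAs have been debated as such pieces. Of the 7 names, miR-4332 is listed for pig, miR-2887 and miR-2904 are cattle names, miR-5105 and miR-6243 are mouse names, miR-6087 is a human name, and the miR-716a entry used by the authors comes from the Tasmanian devil.

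Liver of male Jinhua pigs was sequenced at embryonic day 90 (E90), postnatal day 30 (P30d, weaning) and postnatal year 7 (P7y, adult), with 1 library per stage, and the labels name no treatment or altered gene. The labels name 3 pigs per stage and do not state whether their RNA was pooled. There is no replicate spread, so every statement below compares libraries and not stages, no p-value is given, and the 95% intervals cover counting error only. Values are counts per 1000000 reads of known names (CPM).

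The tables held 9243601, 3622993 and 9920207 reads of known names at E90, P30d and P7y, which makes 1 read worth 0.108, 0.276 and 0.101 CPM. For the size of a ratio, a count of 0 was set to 3 reads, or 0.325, 0.828 and 0.302 CPM. The hepatocyte microRNA miR-122-5p held 12.8%, 21.4% and 3.79% of these reads and miR-192-5p, also abundant in liver, held 10.9%, 10.9% and 15.5%.

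Within the region every table line, 31 at E90, 28 at P30d and 31 at P7y, lay on the minus strand. The lines of the 7 names there span chr6:866649-871083, which is 4.43 kb. Read from the 5′ end of that strand, the order is miR-5105 (chr6:870882-870961), miR-4332 (chr6:870446-870551), miR-716a (chr6:868791-868939), miR-6087 (chr6:867408-867456), miR-6243 (chr6:866755-867021 at E90), miR-2904 (chr6:866740-866808) and miR-2887 (chr6:866649-866705). No gene annotation of this build was used, so exons and introns were not assigned. The miR-6243 stretch of E90 overlaps the miR-2904 hairpin. miR-2887, miR-6087 and miR-716a had all of their reads in the region in each library, and miR-2904 and miR-4332 had at least 98.6%. miR-5105 had 100%, 92.3% and 92.6% of its reads there at E90, P30d and P7y. miR-6243 was the exception, with 10, 8 and 9 places in the genome and 41.6%, 46.4% and 42.5% of its reads in the region.

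The most copied read of an arm, called its representative read, shows what the names stand for in these libraries. One arm of each of the 6 names with a placed hairpin is given, 5′ to 3′, with the seed, bases 2 to 8, in capitals, because these reads differ between the libraries. All come from the deposited tables.
miR-5105-3p, E90 and P7y: cTTCTGATcgaggccc
miR-5105-3p, P30d: cCCGTGGAcggtgtgaggcc
miR-4332-3p, E90: cGGGCGCAtttccacc
miR-4332-3p, P30d: cCCCCGGTcggcgtccacggc
miR-4332-3p, P7y: cCGGGCGCatttccaccgc
miR-716a-3p, E90, P30d and P7y: aTTCAAACgagaactttgaaggcc
miR-6087-3p, E90: cTCTCGCTtctggcgcc
miR-6087-3p, P30d: cCCCGAGGggctctcgcttctggcgcc
miR-6087-3p, P7y: cCCGAGGGgctctcgcttctggcgccaa
miR-2904-5p, E90 and P7y: cCTCGGTTggcctcgga
miR-2904-5p, P30d: cGCCGCGGgagcctcggttggcctcgga
miR-2887-5p, E90: gACCGGGGtccggtgcggagagccct
miR-2887-5p, P30d: gGGACCGGggtccggtgcggagagccc
miR-2887-5p, P7y: gGGACCGGggtccggtgcggagagccct

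Only miR-716a-3p kept the same representative read in all 3 libraries. Of the 11 name and arm entries of the group with a mean of 10 CPM or more, 1 (9.09%) did so, against 159 of 314 (50.6%) of the other names that passed the same filter and had reads in each library. Even the first 10 bases were the same in only 1 of the 11, against 267 of 314 (85.0%) of the other names. Where an arm had several lines, the line with the most reads was used, here and for share, GC content, length and mature name below. For miR-6243-3p at E90 and miR-6243-5p at P30d that line lay on chromosome 13, outside the region. For miR-5105-3p and miR-4332-3p the P30d read came from another part of the arm than the E90 and P7y reads did. Over the 44 region lines of the 7 names in the 3 tables, the 39 distinct representative reads carried 36 different seeds, and 0 seeds stood under 2 or more of the names or arms.

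In most of these entries the representative read held a small part of its arm, or of its most-read line where the arm had several. The median share of an arm's reads held by it was 6.61%, 7.14% and 8.30% in the 11 entries at E90, P30d and P7y, against 59.5%, 54.3% and 58.6% in the 319, 319 and 316 other entries with reads. The share was 25% or less in 10 of the 11 entries in each library, against 6.27%, 6.90% and 7.59% of the other entries. The other entries include further names of the region, and low shares were not particular to the 7 names there. At E90, P30d and P7y the region line of miR-6236-3p had 6.61%, 9.53% and 8.39%, and that of miR-716b-3p 15.4%, 12.9% and 21.3%. miR-4792-3p of the region went the other way, as given below. The highest member was miR-6243-5p at P30d, with 40.0% of the 195 reads of its chromosome 13 line. That arm had 474 reads at P30d over all its lines. Of the 3 entries under the filter, miR-2887-3p at P7y was a single read sequence of 9 copies. The 16410 reads of miR-716a-3p at E90, the largest number of the group, were led by a read of 669 copies, or 4.08%. A read placed at several sites is divided among them but its copies are not. For miR-6243, and for any other line with divided reads, these shares are therefore upper values, here and below.

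**Figure D1:**
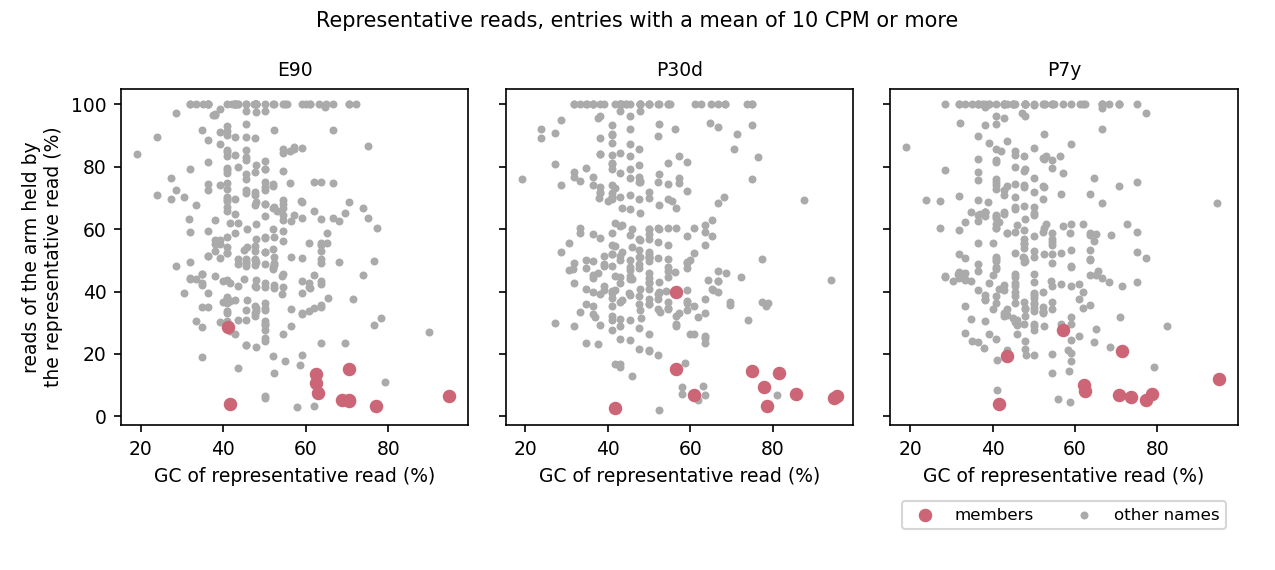
Share of an arm's reads held by its representative read (y axis, percent) against the GC content of that read (x axis, percent) in each library, for the 11 member entries (large points) and the other names with a mean of 10 CPM or more (small points). For an arm with several lines, the line with the most reads is shown. The members lie along the bottom, with 10 of 11 at 25% or less in each library, and most lie to the right of the median of the other names.

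The representative reads of most member entries were rich in G and C. The median GC content of the representative reads was 68.8%, 77.8% and 70.6% in the 11 entries at E90, P30d and P7y, against 47.8%, 47.6% and 47.6% in the other entries. miR-716a-3p, at 41.7%, lay below the median of the other entries, while miR-4332-5p had 94.7% at both E90 and P30d. These medians count each entry alike. miR-716a, nearly all of it the 3p arm, held 60.0%, 16.4% and 56.7% of the group's reads at E90, P30d and P7y. Length differed between libraries: the median representative read was 17 nt at E90, 23 nt at P30d and 22 nt at P7y, against 22 nt in the other names of each library. At E90 3 of 11 member reads were 19 to 24 nt long, against 91.8% of the other entries. At P30d 8 of 11 were, against 91.5%, and at P7y 6 of 11, against 88.9%. With no filter on level, the P30d gap narrowed to 10 of 14 member entries, against 76.3% of the others.

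Few of these reads were the annotated mature microRNA. The tables give a representative read the name of a mature microRNA where it matches one and a label for the arm otherwise. None of the 11 member entries had a mature name at E90, 2 had one at P30d and 2 at P7y, against 95.6%, 94.4% and 94.0% of the other entries. At P30d they were miR-2887-5p and miR-2904-5p. At P7y they were miR-2887-5p and miR-6243-3p. Reads mismatched to the placed sequence made up a median of 2.78%, 6.82% and 4.29% of the 11 entries at E90, P30d and P7y. In the other entries the medians were 13.6%, 16.2% and 17.8%. miR-6243-5p lay above these, with 19.5%, 49.8% and 22.2%. So did miR-6243-3p at E90, with 56.4%, and miR-5105-3p at P30d, with 18.6%. Every other value of the 11 entries lay below them.

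The arms of the hairpins also lay differently. In 4 of the 6 hairpins of the group at E90, 2 of 6 at P30d and 4 of 6 at P7y the 5p and 3p representative reads overlapped each other. Among the other hairpins of known names with 20 or more reads and both arms, 0 of 188 at E90, 1 of 159 at P30d and 0 of 125 at P7y did, and their arms were a median of 16 bases apart. miR-2887 and miR-6087 had overlapping arms in every library, and at P30d they were the only 2. Their overlaps rest on few reads. miR-2887-3p had 19, 36 and 9 reads at E90, P30d and P7y, and miR-6087-5p had 7, 8 and 31. Both arms were under the filter of 10 CPM, and their P30d representative reads had 4 and 3 copies. miR-716a and miR-4332 had separate arms in every library, 80, 72 and 80 bases apart at E90, P30d and P7y in miR-716a. The hairpins of miR-2887, miR-2904 and miR-5105 are shown as placed, with the bases that both E90 representative reads cover in capitals.
miR-2887, minus strand of chr6:866649-866705: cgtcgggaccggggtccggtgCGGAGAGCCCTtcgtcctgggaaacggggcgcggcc
miR-2904, minus strand of chr6:866740-866808: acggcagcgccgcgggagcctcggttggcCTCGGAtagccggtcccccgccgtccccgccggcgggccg
miR-5105, minus strand of chr6:870882-870961: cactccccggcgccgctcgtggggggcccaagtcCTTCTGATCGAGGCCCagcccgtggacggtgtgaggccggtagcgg

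The capitals mark 11, 6 and 16 bases. In miR-5105 the 16 bases are the whole 3p read of E90, which lies inside the 5p read. The authors' folding index (MFEI, the free energy of the fold per length and GC content, higher for a tighter hairpin) was 0.6 to 0.8 in the 6 member hairpins with a median of 0.6, against a median of 0.8 in the 313 other hairpins of known names at E90. The GC content of the 6 hairpins was 60.4% to 87.7%, against a median of 50.0% in the others.

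The summed level of the 7 names was 2962 CPM (2927 to 2997) at E90, 4370 CPM (4302 to 4438) at P30d and 1564 CPM (1540 to 1589) at P7y. These are 0.296%, 0.437% and 0.156% of the reads of known names. The P30d library was the highest and the P7y library the lowest, and the intervals did not overlap. The log2 ratio of the sum was 0.56 (0.53 to 0.59) for P30d over E90, -1.48 (-1.51 to -1.45) for P7y over P30d and -0.92 (-0.95 to -0.89) for P7y over E90. miR-716a alone made up 60.0%, 16.4% and 56.7% of the reads of the group at E90, P30d and P7y. Without it the sum was 1185, 3654 and 678 CPM, and the log2 ratios were 1.62, -2.43 and -0.81 in the same order of pairs.

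The ratios to P7y depend on the scaling. Among the 332 entries with a mean of 10 CPM or more the median log2 ratio was -0.17 for P30d over E90, -1.32 for P7y over P30d and -1.06 for P7y over E90. Scaling by TMM factors moved every ratio by -0.15, 1.07 and 0.92, and size factors of DESeq2 moved them by 0.03, 1.02 and 1.05. Relative to the median of the 332, which no scaling changes, the sum of the 7 names was higher by 0.73 in P30d over E90, lower by a log2 difference of -0.16 in P7y over P30d, and higher by 0.14 in P7y over E90. The sum of P7y over E90 was therefore -0.92 by the total, 0.00 by TMM factors and 0.13 by DESeq2 factors.

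**Figure D2:**
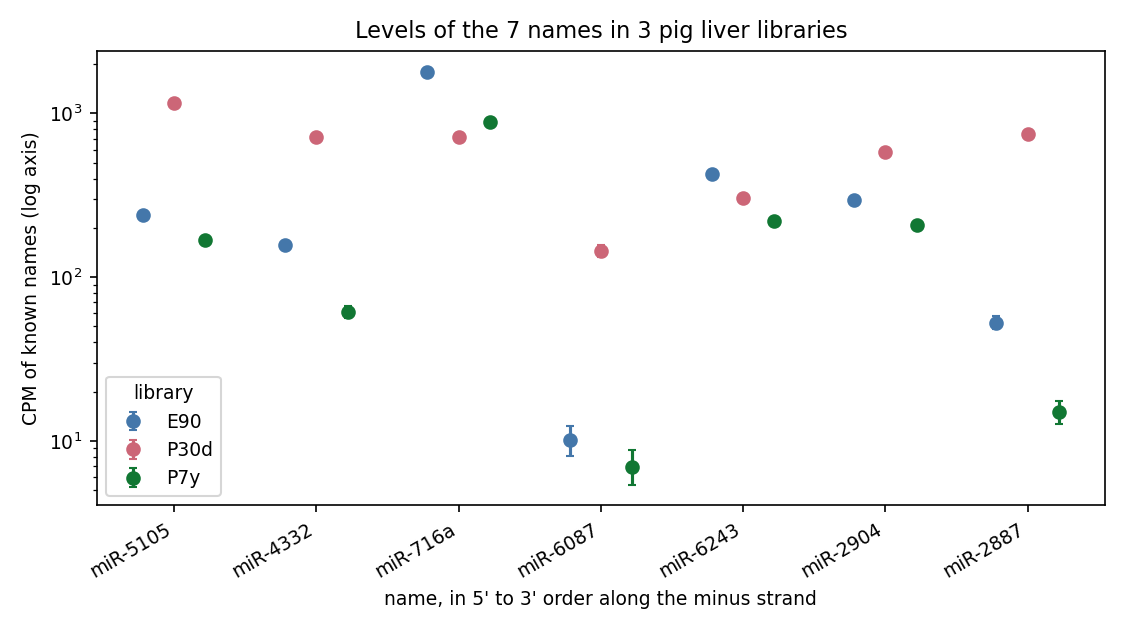
CPM of each of the 7 names (log axis) in the 3 libraries, names in 5′ to 3′ order along the minus strand, with exact Poisson 95% intervals of counting error. For 5 names the P30d point is the highest, while miR-716a and miR-6243 are highest at E90.

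The names miR-2887, miR-6087, miR-5105, miR-4332 and miR-2904 were highest at P30d. miR-2887 had 52.6 CPM at E90, 751 CPM at P30d and 15.0 CPM at P7y, the widest span of the group. Its log2 ratio was 3.84 (3.70 to 3.98) for P30d over E90 and -5.64 (-5.89 to -5.41) for P7y over P30d. Nearly all of it was the 5p arm, with 740.8 CPM at P30d, against 50.5 CPM at E90. miR-6087 had 10.1, 144 and 6.96 CPM at E90, P30d and P7y, with a log2 ratio of 3.84 (3.52 to 4.17) for P30d over E90. Its E90 level rests on 93 reads. Its P7y and E90 libraries differed little, by a log2 ratio of -0.53 for P7y over E90, a sign that turned to 0.39 by TMM and 0.52 by DESeq2 factors.

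miR-5105 was the most abundant name at P30d. It had 239 CPM at E90, 1152 CPM at P30d and 168 CPM at P7y, and log2 ratios of 2.27 (2.19 to 2.34) for P30d over E90 and -2.78 (-2.86 to -2.70) for P7y over P30d. Its 5p arm had 62.9, 593 and 33.0 CPM and its 3p arm 176, 559 and 135 CPM, so over all places the 3p arm was ahead at E90 and P7y and the 5p arm slightly ahead at P30d. At the hairpin itself the 3p arm was ahead at P30d too, with 1720 reads against 1362 on the 5p arm, and a separate placement, chr6:870825-871083, added 768 reads to the 5p arm. Its P7y over E90 ratio of -0.51 became 0.41 by TMM and 0.54 by DESeq2 factors. At P30d it also had 317 reads at places outside the region, where the E90 and P7y tables list none. Reads without a place on the genome numbered 0, 5 and 123 at E90, P30d and P7y. Of the 123, 118 stood on the 3p arm and are part of its level above.

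miR-4332, the pig-named hairpin, had 158, 721 and 61.3 CPM at E90, P30d and P7y. The log2 ratio of P30d over E90 was 2.19 (2.10 to 2.28), and the arms were unequal. The 3p arm had 105.7, 665 and 41.1 CPM, with a log2 ratio of 2.65 for P30d over E90, while the 5p arm had 52.4, 56.3 and 20.2 CPM, with a log2 ratio of 0.10 (-0.14 to 0.34). miR-2904 had 297, 582 and 207 CPM, with a log2 ratio of 0.97 (0.89 to 1.06) for P30d over E90. Its 3p arm differed more between P30d and E90, with 249 CPM at P30d and 72.3 CPM at E90, than its 5p arm did, with 334 CPM at P30d and 224 CPM at E90. Its P7y over E90 ratio of -0.52 became 0.40 by TMM and 0.53 by DESeq2 factors.

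miR-716a and miR-6243 did not share that order. miR-716a had 1776 CPM (1749 to 1804) at E90, 715.7 CPM (688 to 744) at P30d and 886 CPM (868 to 905) at P7y, nearly all from the 3p arm. Its log2 ratio was -1.31 (-1.37 to -1.25) for P30d over E90 and 0.31 (0.25 to 0.37) for P7y over P30d. The latter became 1.38 by TMM and 1.32 by DESeq2 factors, both past 2-fold. miR-6243 had 429, 304 and 220 CPM at E90, P30d and P7y. Its log2 ratio was -0.50 (-0.59 to -0.40) for P30d over E90 and -0.47 (-0.57 to -0.36) for P7y over P30d, which became 0.60 by TMM and 0.55 by DESeq2 factors.

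The level of miR-716a cannot be read without its neighbour miR-716b, which is not among the 7 names. The hairpin the authors gave miR-716b, chr6:868688-868950 at E90, contains that of miR-716a, and the 3p representative reads of both share 20 bases, shown in capitals as the P30d library gives them.
miR-716a-3p, P30d: attcAAACGAGAACTTTGAAGGCC
miR-716b-3p, P30d: AAACGAGAACTTTGAAGGCCgaag

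The miR-716b read starts 4 bases further along. miR-716b had 355 CPM at E90, 2452 CPM at P30d and 179 CPM at P7y, highest in the library where miR-716a was lowest, and like miR-716a it was higher at E90 than at P7y. miR-716a held 83.4% (82.8% to 83.9%) of the reads of both at E90, 22.6% (21.8% to 23.4%) at P30d and 83.2% (82.5% to 83.9%) at P7y. Summed, the stretch had 2131 CPM at E90, 3168 CPM at P30d and 1065 CPM at P7y, and its log2 ratio of P30d over E90 was 0.57, against -1.31 for miR-716a alone. The sum followed the order of the 5 names above, with P30d highest.

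**Figure D3:**
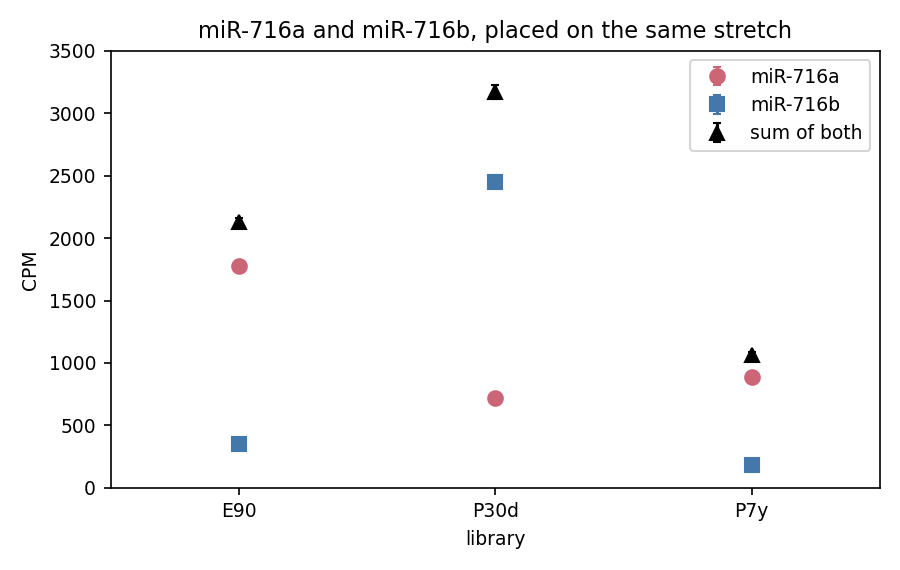
CPM of miR-716a, miR-716b and their sum (y axis) in the 3 libraries, with exact Poisson 95% intervals of counting error, mostly smaller than the symbols. miR-716a is lowest at P30d, while miR-716b and the sum are highest there.

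The arms of miR-6243 are likewise a matter of placement. The 5p arm had 395, 131 and 99.1 CPM at E90, P30d and P7y and the 3p arm 33.6, 173 and 120 CPM, with log2 ratios of -1.59 and 2.37 for P30d over E90. Per the file headers, such a name is placed by extending the read into its surroundings, and the stretch in the region differed between libraries: chr6:866755-867021 at E90, chr6:866741-867003 at P30d and chr6:866726-866988 at P7y. The representative reads there are shown with the seed in capitals.
miR-6243-5p, E90: tGTGCTTGgctgaggagccaatggggc
miR-6243-3p, P30d: cAATGGGGcgaagctaccatctg
miR-6243-5p, P7y: tGTGCTTGgctgaggagccaatggggcga
miR-6243-3p, P7y: aCCATCTGtgggattatgactga

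The last 9 bases of the E90 5p read are the first 9 of the P30d 3p read, and the last 8 of that read are the first 8 of the P7y 3p read. Reads from adjoining positions thus stand under different arm names, and the sum over arms is the value to compare. In the region the name had 178, 141 and 93.4 CPM at E90, P30d and P7y, and at its other places 245, 159 and 122 CPM, with the same order of libraries at both.

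Of the 11 member entries with a mean of 10 CPM or more, 7 were higher and 2 lower by 2-fold or more with a counting interval off 0 in P30d over E90, where 32.8% and 35.8% of the 332 entries were. In P7y over P30d, 0 were higher and 8 lower, where 13.9% and 55.1% were. In P7y over E90, 1 was higher and 6 lower, where 12.3% and 50.6% were, and the 6 lower ones became 1 by TMM and 0 by DESeq2 factors. The rule of choice used these levels, so nothing is read from the counts. No member entry lay near the filter: miR-4332-5p, the lowest inside, had a mean of 42.9 CPM, and miR-2887-3p, miR-716a-5p and miR-6087-5p, outside, had 4.30, 3.14 and 2.03 CPM. The median log2 ratio of the 11 was 1.78 for P30d over E90, -2.02 for P7y over P30d and -1.01 for P7y over E90. By TMM factors 1 was higher and 4 lower in P7y over P30d, and the share of higher entries among all called of the 332 was 20.1% by the total, 46.0% by TMM and 44.6% by DESeq2 factors. In P7y over E90 that share was 19.6% by the total, 42.8% by TMM and 45.4% by DESeq2 factors.

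**Figure D4:**
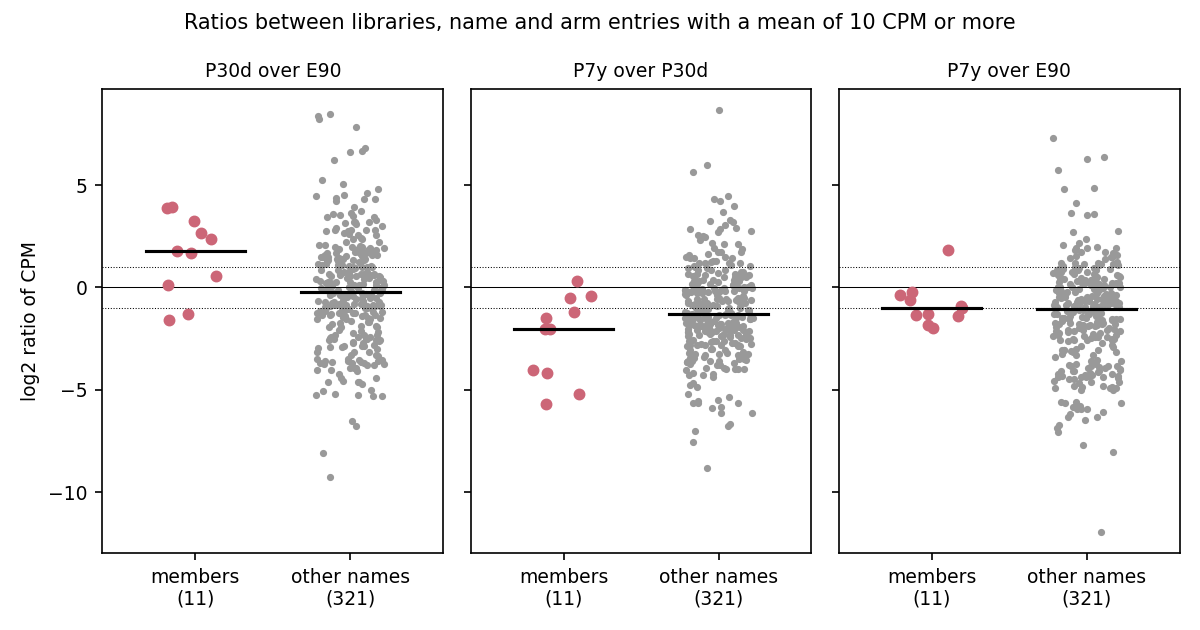
Log2 ratios of CPM between libraries (y axis) for the 11 member entries and the 321 other entries with a mean of 10 CPM or more, with the median of each as a bar and dotted lines at 2-fold. Member medians are 1.78, -2.02 and -1.01 in the 3 pairs.

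Other known names placed in the region summed to 1129 CPM at E90, 5160 CPM at P30d and 686 CPM at P7y. Besides miR-716b the largest were miR-4792, miR-5109 and miR-6236. miR-4792 had 23.6, 1781 and 3.93 CPM. A single sequence, the same in all 3 libraries, held 86.5%, 93.2% and 59.0% of its 3p reads at E90, P30d and P7y. The P7y value rests on 23 copies among 39 reads. The read is shown here for contrast.
miR-4792-3p, E90, P30d and P7y: cCGGTGAGctctcgctggcc

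miR-5109 had 581, 445 and 402 CPM and miR-6236 148, 432 and 80.9 CPM in the region. The orders within the region thus differed among names that are at most a few kilobases apart. The representative read of miR-5109-5p, 21 nt long, was also the same in all 3 libraries, but held 3.48%, 5.15% and 8.06% of its arm. The miR-6236-3p read of the region differed in each library, while that of miR-716b-3p began with the same bases in all 3.

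Between P30d and either other library, most of the difference in the region lay in the predicted hairpins. They drew 5227, 135633 and 96 reads in E90, P30d and P7y, or 565, 37437 and 9.68 CPM on the scale of the known names. They held 12.8%, 80.2% and 0.456% of all reads of the region. They held 3.21%, 89.1% and 0.646% of the reads of all predicted hairpins of the tables at E90, P30d and P7y. The whole region, known names included, made up 0.433%, 4.48% and 0.212% of all reads of the tables. These sums cover different hairpins: 2 at E90 (528 bases), 2 at P30d (521 bases) and 3 at P7y (782 bases), with 2614 and 67816 reads per hairpin at E90 and P30d and 96 reads in all at P7y, and 0 of the 7 overlapped a hairpin of another library. A hairpin that a table does not list may have had reads that the authors did not report, so no ratio is drawn for a single hairpin.

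**Figure D5:**
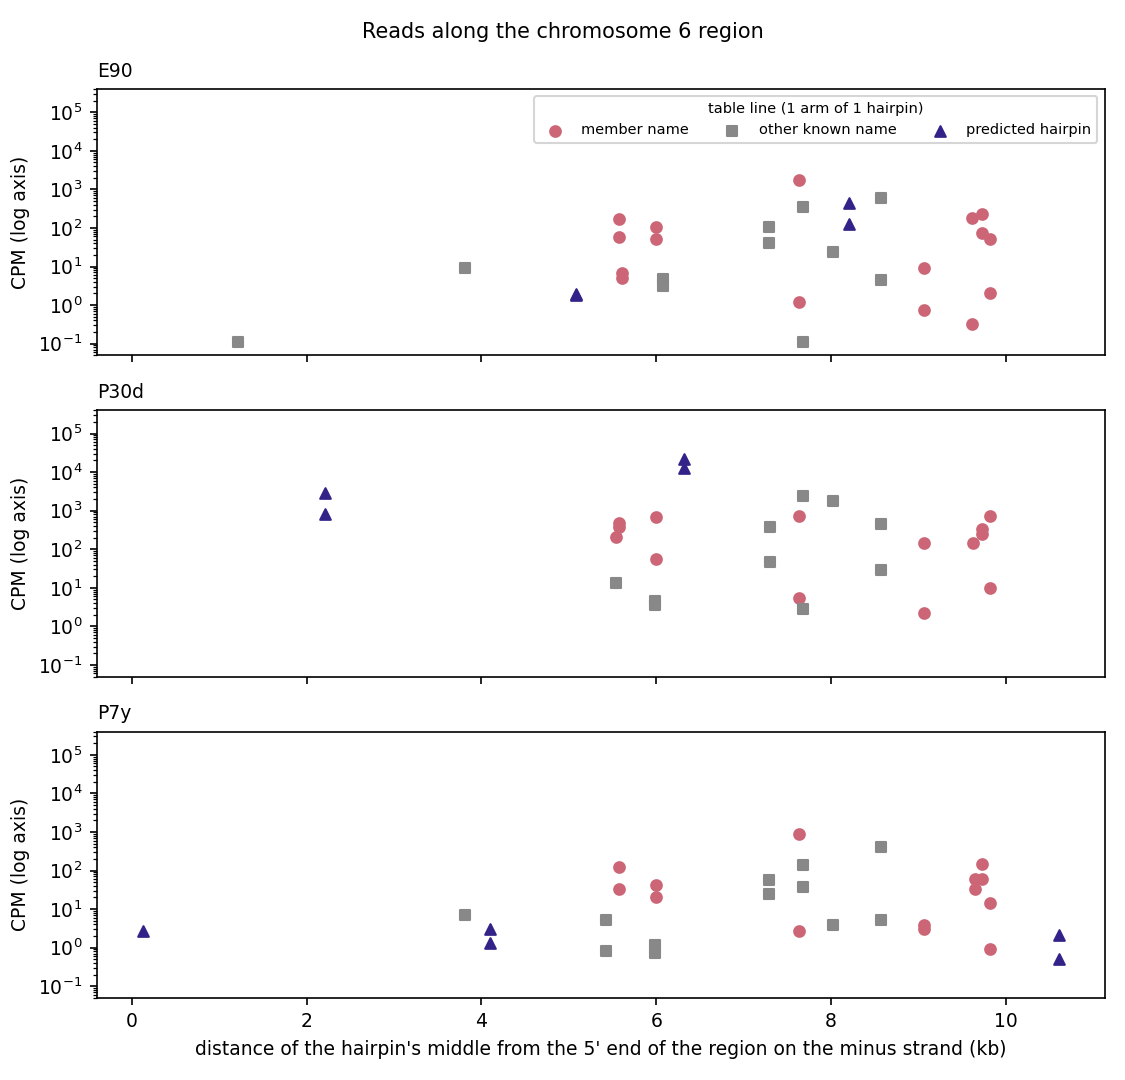
CPM (log axis) of each table line of the region against its distance in kb from the 5′ end of the region on the minus strand, in 3 panels by library, for the 7 names, other known names and predicted hairpins. At P30d the 4 predicted arms stand above every other line except miR-716b-3p and miR-4792-3p, which exceed the lowest of them, and at P7y the predicted arms lie at 3.02 CPM or less.

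The 5 predicted hairpins with the most reads were those at chr6:870046-870306 and chr6:874152-874411 at P30d, chr6:868164-868429 and chr6:871290-871551 at E90, and chr6:872272-872534 at P7y. The one at chr6:870046-870306 had 77055.5 expected reads on its 3p arm and 45152 on its 5p arm, or 21269 and 12463 CPM, which put the 3p arm at rank 9 and the 5p arm at rank 18 of the 1584 lines of the P30d table. Its 3p representative read, 21 nt long, had 57309 copies, or 74.4% of the arm, and the 5p read had 13914 copies, or 30.8%. Its placed sequence is printed as deposited, with both representative reads in capitals.
Predicted hairpin of P30d, minus strand of chr6:870046-870306: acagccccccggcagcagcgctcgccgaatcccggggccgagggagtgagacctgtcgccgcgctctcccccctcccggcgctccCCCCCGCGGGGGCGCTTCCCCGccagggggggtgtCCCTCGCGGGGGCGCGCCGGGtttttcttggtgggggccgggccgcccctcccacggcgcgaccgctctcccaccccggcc

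The printed part is 201 of the 261 bases of the stretch. Its arms, unlike those of miR-2887 and miR-6087, do not overlap, and 3.12% of the 3p and 3.16% of the 5p reads had a mismatch. The hairpin at chr6:874152-874411 had 10538.5 reads on the 3p arm and 2886.5 on the 5p arm, led by reads of 498 and 45 copies, or 4.73% and 1.56% of the arm, the spread seen for the 7 names. The E90 hairpin at chr6:868164-868429 had 4032 reads on the 5p arm and 1160 on the 3p arm, led by reads of 154 and 30 copies. The remaining pair, chr6:871290-871551 at E90 and chr6:872272-872534 at P7y, had 30 reads or fewer on each arm. The representative reads of the more abundant arms follow, with bases 2 to 8 in capitals.
chr6:870046-870306, P30d, 3p: cCCTCGCGggggcgcgccggg
chr6:874152-874411, P30d, 3p: gGCCCCGCcggggtcggccc
chr6:868164-868429, E90, 5p: aGGGCTGGgtcggtcgggctggggcg
chr6:871290-871551, E90, 5p: tCTCGGCCtggtcgtcgttgtgcgcct
chr6:872272-872534, P7y, 3p: tGGGGTGGgttggctggggg

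The pair of log2 ratios of the sum of the 7 names was set beside those of 172 other name and arm entries with a mean of 100 CPM or more. Other entries of the region with that mean were among the 172. The nearest were miR-339-5p, miR-191-5p, miR-199b-5p, miR-425-3p and miR-27b-3p, all outside the region. Their distances were 0.07 to 0.23 on the log2 scale over the 3 libraries. miR-339-5p, the nearest, had 637, 984 and 351 CPM at E90, P30d and P7y. With 3 libraries many names share an order, and the distance describes only that.

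A list of 8 other names discussed as rRNA pieces had reads for 3 names and 4 entries past the filter, all of miR-6236 and miR-6240. Of these 2 were higher and 0 lower in P30d over E90, and 0 were higher and 3 lower in P7y over P30d, with a summed 388, 824 and 218 CPM. The 2 higher were miR-6236-3p and miR-6240-3p. The region held 77.2%, 71.4% and 73.4% of miR-6236-3p reads at E90, P30d and P7y, and 35.8%, 71.2% and 65.2% of miR-6240-3p reads. It held 45.1%, 37.1% and 45.0% of miR-6236-5p reads and 0% of miR-6240-5p reads. This list is thus not independent of the region. Of all 332 entries 32.8% were higher and 35.8% lower in P30d over E90, and 13.9% and 55.1% in P7y over P30d. A list of 21 names discussed as pieces of transfer RNA and other RNAs had reads for 9 names and 12 entries past the filter, and its sum was lowest at P30d, with 2902, 2385 and 3958 CPM at E90, P30d and P7y. Of the P30d sum 1858 CPM were miR-4792, and without it, a split chosen after the values were seen, the list had 2878, 527 and 3953 CPM. In P30d over E90, 2 of these 12 were higher, which were the arms of miR-4792, and 8 lower. In P7y over P30d, 9 were higher and 2 lower, where the same shares of the 332 apply, and by TMM factors 28.0% of the 332 were higher in that pair. The largest, miR-2478-3p, had 1202, 92.3 and 1715 CPM, and miR-4454-5p had 836, 289.5 and 963 CPM.

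Names of blood cells also differed between the libraries. The leukocyte list, with reads for 4 of 4 names, summed to 980, 3447 and 946 CPM at E90, P30d and P7y, highest at P30d like the sum of the 7 names. Its largest entry, miR-142-5p, had 374, 2956 and 609 CPM, while miR-223-3p had 296, 50.2 and 83.1 CPM and miR-142-3p 195, 190 and 105 CPM. Of its 5 entries past the filter 2 were higher and 1 lower in P30d over E90, where 32.8% and 35.8% of the 332 were. The erythroid list, with reads for 3 of 3 names, summed to 7242, 3034 and 1821 CPM. Of its 4 entries past the filter 0 were higher and 3 lower in P30d over E90, where the same shares apply. In P7y over P30d 0 were higher and 1 lower, where 13.9% and 55.1% of the 332 were. That 1 was miR-144-3p, with 978, 1195 and 123 CPM, which was not lower at P30d than at E90. The largest entry, miR-451-5p, had 3941, 1339 and 1223 CPM. The part of blood cells in the levels of the 7 names was not tested, and in bulk tissue more cells of a type and more RNA per cell cannot be told apart.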

How the data were processed

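For each library there is 1 deposited table, whose lines are hairpin arms. Reads were mapped to miRBase hairpins of pig and other mammals, which were placed on the genome and on expressed sequence tags, and hairpins without a known name were predicted by folding, per the file headers. An arm's deposited reads are expected counts, because reads with several places are divided, and they were rounded to whole numbers for intervals. Copies of the representative read are deposited counts, and the GC content of a hairpin is a deposited percent value. The folding index (MFEI) is a score the authors computed, per the file headers. The GC content of a representative read was counted from its deposited sequence. The submitters' processing notes name Sscrofa10.2. For the aligner and the miRBase release: not given in the sources used here. Per the labels, RNA fragments of 14 to 40 nt were ligated, amplified by PCR and sequenced, so reads are not independent molecules.

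Members and lists were chosen with earlier results of these data known. The named items were all 7 names with arm and place, the 5 predicted hairpins with the most reads, the 5 names of 100 CPM or more nearest in log2 ratio, miR-122-5p and miR-192-5p, and the fragment and cell lists. miR-716b, miR-5109, miR-4792 and miR-142-5p are also named, the first 2 after their values were seen. Reads were summed per name and arm and scaled per 1000000 reads of known names. Entries with a mean of 10 CPM or more entered comparisons. A log2 ratio, later over earlier, has an exact conditional binomial 95% interval, a level an exact Poisson one and a share an exact Clopper-Pearson one. An entry was called where the ratio was 2-fold or more and the interval off 0. A line of P7y that lists miR-5105 after other names was left out. The ratio step was tested on simulated data. Alternatives were TMM factors (edgeR 4.0.16), size factors (DESeq2 1.42.0), other totals, filters and read sets. Software was R 4.3.3 and Python 3.11.15 with SciPy 1.17.1, NumPy 2.4.6, pandas 2.3.3 and matplotlib 3.10.9.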

Additional observations from a re-analysis of the deposited data

How the results depend on the processing

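No paired analysis was possible because there is 1 library per stage, and for the same reason no library could be left out. The summed level of the 7 names at E90, P30d and P7y was 190, 599 and 137 CPM from copies of the representative read alone, 2813, 3997 and 1496 CPM from reads without a mismatch, 2711, 4109 and 1426 CPM from entries of the region only, and 2910 and 4193 CPM at E90 and P30d when all reads of a table made the total. With alternatives chosen after seeing the data it was 1185, 3654 and 678 CPM without miR-716a, 3316, 6822 and 1743 CPM with miR-716b added, and 3840, 9269 and 2111 CPM for all known names of the region. P30d stayed highest and P7y lowest in each of these.

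The log2 ratio of the sum for P30d over E90, 0.56, was past 2-fold from the representative read alone (1.66), without miR-716a (1.62), with miR-716b added (1.04) and for all known names of the region (1.27). For P7y over P30d it fell short of 2-fold by TMM (-0.41) and DESeq2 factors (-0.47). For P7y over E90 it changed sign by DESeq2 factors (0.13).

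Single names that changed sign were as follows. With miR-716b added, miR-716a had 0.57 for P30d over E90 and -1.57 for P7y over P30d. From the representative read alone, miR-6243 had 0.48 for P30d over E90, and miR-5105 and miR-6087 had 0.034 and 0.20 for P7y over E90. For miR-6243, P7y over P30d was 0.60 by TMM and 0.55 by DESeq2 factors. For P7y over E90, TMM factors gave 0.40, 0.41 and 0.39 for miR-2904, miR-5105 and miR-6087, and DESeq2 factors gave 0.53, 0.54, 0.52, 0.046 and 0.084 for miR-2904, miR-5105, miR-6087, miR-716a and miR-6243. Scaling moves every name alike, and for the other changes the cause was not tested.

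Of 11 entries, those lower in P30d over E90 numbered 1 in place of 2 from the representative read alone. In P7y over P30d 1 in place of 0 was higher with the region only, by TMM and by DESeq2 factors, and 4 in place of 8 were lower by TMM factors. In P7y over E90 3 of all 14 entries were higher with no filter, in place of 1 of the 11. Of the 11, 3, 1 and 0 in place of 6 were lower in that pair from the representative read alone, by TMM and by DESeq2 factors. Predicted hairpins had 524 and 36205 CPM at E90 and P30d from reads without a mismatch. The gap in reads of 19 to 24 nt at P30d, -18.8 percentage points for members minus other names, was -4.87 with no filter. The other 99 values of sums, counts and features under an alternative were taken as unchanged by a loose rule. A ratio kept its sign and call, a level stayed inside its counting interval, and a count or gap was of similar size. They include the sum of P7y over E90 by TMM factors, -0.0017 (-0.030 to 0.027), which has no direction. They also include 6 in place of 8 entries lower in P7y over P30d by DESeq2 factors. Of the values of single names and the fragment list, 123 were unchanged by that rule, 10 fell short of the threshold and 4 passed it. Depth limits miR-6087 at E90 and P7y and the P7y predicted hairpins most.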
